A study of Rattus norvegicus with 4 samples.

Results

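The endocannabinoid genes examined here encode the CB1 cannabinoid receptor (Cnr1) and the enzymes that make and break down its lipid ligands, Faah, Mgll, Dagla, Daglb, Napepld and Abhd6. Their members were all probe sets whose platform annotation gave exactly 1 gene symbol and that symbol was one of these 7 genes. The rule found 12 of the 31042 probe sets other than Affymetrix controls, belonging to 5 of the 7 genes. No probe set was annotated to Dagla or Napepld, and these genes were not analysed here. Both probe sets of Faah are listed under 2 gene identifiers that carry the same symbol, and they were kept as having 1 symbol.

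Endocannabinoids are lipids that neurons make on demand and that act backwards across the synapse. In the main route, diacylglycerol lipases (Dagla and Daglb) make 2-arachidonoylglycerol in the postsynaptic cell, often after activation of Gq-coupled receptors such as mGluR5. The lipid then reaches Cnr1 on the presynaptic terminal, a Gi/o-coupled receptor that lowers transmitter release, and it is hydrolysed by monoacylglycerol lipase (Mgll), Abhd6 and Abhd12. Anandamide, the other ligand, is made in part by Napepld and hydrolysed by fatty acid amide hydrolase (Faah). In the hippocampus Cnr1 is densest on the terminals of cholecystokinin basket cells and sparser on glutamatergic terminals.

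The samples were total hippocampal RNA of male Wistar rats. Stressed rats had gone through the chronic unpredictable mild stress battery, a changing series of mild stressors, for 4 weeks, starting at 15 months of age and ending at 16 months. Nonstressed controls were also 16 months old and lived in ordinary housing, fed and watered freely. Each group had 2 arrays, each with a pool of RNA from 3 rats, so that single animals cannot be seen. The arrays asked how stress changes gene expression in the hippocampus, in a study of early neurodegeneration.

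The values were signal intensities on a linear scale that the authors had scaled to a common level, with a 2% trimmed mean of 300.1 on every array. The log2 signals of stressed and nonstressed rats were compared with limma, and p-values were adjusted over the 14791 probe sets that reached a signal of 100 on 2 or more arrays (Benjamini-Hochberg). A probe set can pass this filter through one group alone. The labels call the 2 arrays of a group biological replicates. A p from limma draws on the spread between these pools and on spread borrowed from other probe sets. Exact permutation of 2 against 2 arrays allows no two-sided p under 0.333.

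Of the 10 endocannabinoid probe sets that passed the filter, 2 fell in stressed rats at adjusted p under 0.05 from limma, 1 of Cnr1 and 1 of Mgll, and none rose. Over the whole array 11.8% of the tested probe sets fell and 12% rose. At unadjusted p under 0.05, 3 of the 10 were lower and 1 was higher by limma. By the unmoderated test that the methods name, 2 were lower and none higher. The share of all tested probe sets at unadjusted p was not counted, so these counts cannot be set against the array. Both genes with a probe set that fell also had probe sets that did not pass, and the probe sets of each changed unequally. Those of Faah, Daglb and Abhd6 did not pass. The median log2 fold change of the 10 probe sets was -0.03, against 0.02 over all tested probe sets. The groups did not overlap at 6 of the 10, compared with 64.4% of all tested probe sets. Of these 6, 4 were lower and 2 higher in stressed rats, where 29.5% of all tested probe sets lay apart as lower and 34.9% as higher.

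**Figure D1:**
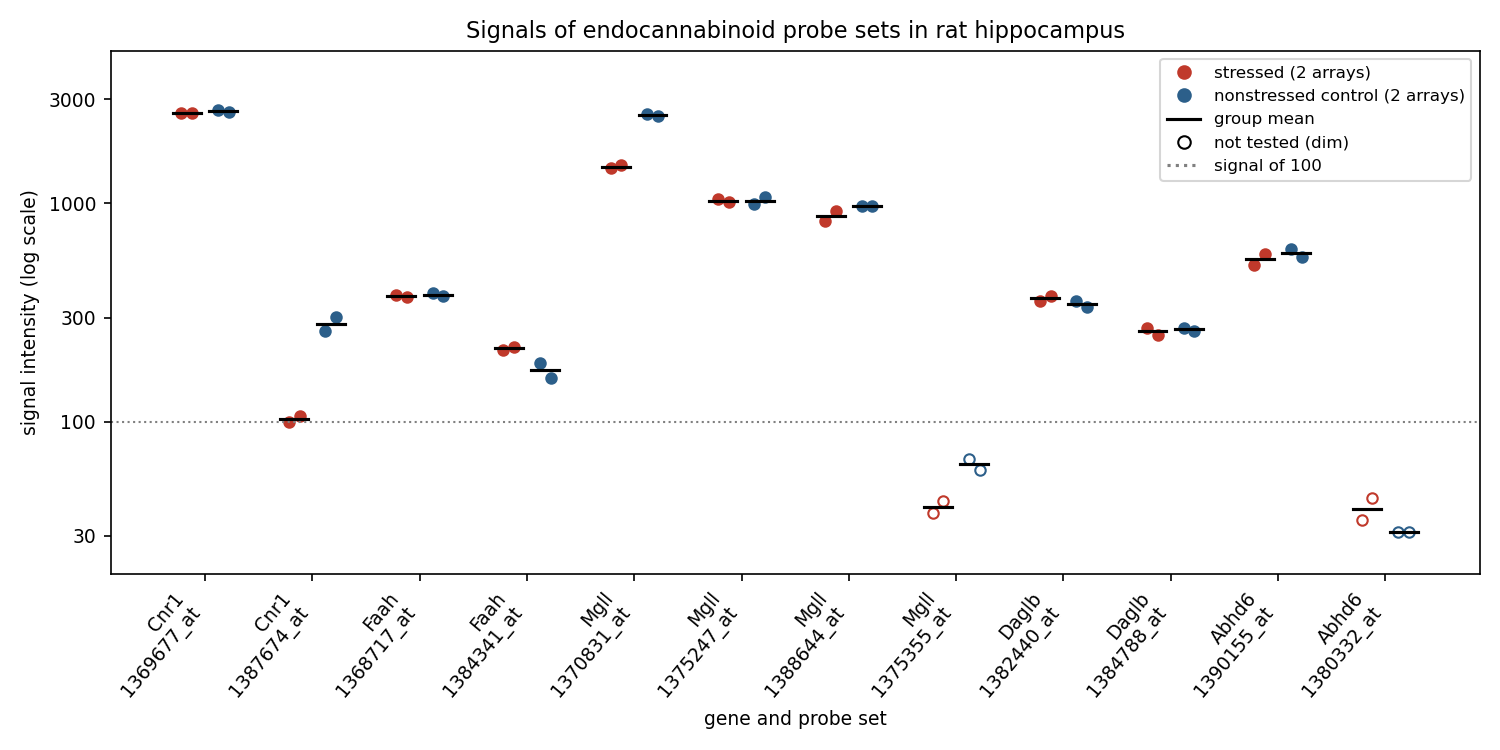
Signal intensity on a log scale (vertical axis) of the 12 endocannabinoid probe sets (horizontal axis) on 2 stressed and 2 nonstressed control arrays, with points for arrays and bars for group means. The groups lie far apart at Cnr1 1387674_at and Mgll 1370831_at, and the open points of Mgll 1375355_at and Abhd6 1380332_at lie under the dotted signal of 100.

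Cnr1 encodes the receptor itself and was represented by 2 probe sets, which gave different results. The probe set 1387674_at had signals of 99.5 and 106.1 in stressed rats, against 259.3 and 301 in nonstressed controls. Both stressed values were well below both control values and lay close to the minimum of 100. The controls alone brought the probe set past that filter, and it also passed the test with no filter (limma adjusted p = 9.04e-04). The study selected falling probe sets of neuron genes on these same samples, and its text does not name Cnr1. Its heat maps of the selected probe sets were not read here, so whether they hold Cnr1 is not known. The genes of this report were also chosen with earlier results of these data known. The means were 102.8 ± 4.67 in stressed rats and 280.15 ± 29.5 in nonstressed controls (SD, n = 2 arrays each). The log2 fold change was -1.44 (standard error 0.13, 95% interval -1.74 to -1.15, limma adjusted p = 3.16e-04), so that the stressed signal was 2.72-fold lower. This was the only endocannabinoid probe set past the thresholds of the methods, a change of 2-fold or more with unadjusted p under 0.05, which 1.38% of all tested probe sets passed as lower. In bulk tissue, fewer cells of a type and less RNA per cell cannot be told apart. Whether Cnr1 RNA as a whole was lower was not tested, and the other probe set of the gene did not pass.

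The other probe set of Cnr1, 1369677_at, had signals of 2585.9 and 2583.1 in stressed rats, against 2663.1 and 2633.2 in nonstressed controls. The groups did not overlap, but the gap between them was small beside the signal. Its log2 fold change was -0.04 (standard error 0.04, limma adjusted p = 0.584), and the 95% interval of the fold ran from 0.912 to 1.04. Brightness differs between probe sets for reasons of their own sequence, so the higher signal does not rank one above the other. At its brightest tested probe set, the rule by which other genes are counted below, Cnr1 did not pass. The annotation ties 1369677_at to the mRNA entry X55812 and 1387674_at to NM_012784. Where on the Cnr1 transcript each of them binds was not determined here.

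**Figure D2:**
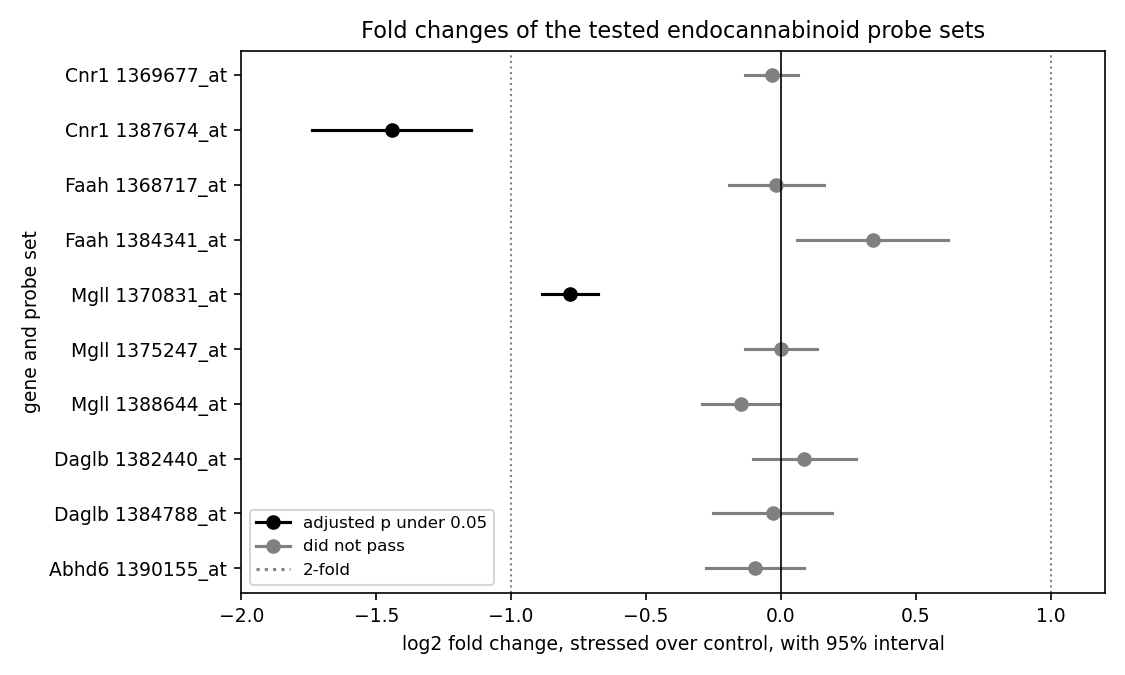
Log2 fold change of stressed over nonstressed control rats (horizontal axis) for the 10 tested endocannabinoid probe sets (vertical axis), with the estimate from limma as a point and its 95% interval as a line, and black for adjusted p under 0.05. Only Cnr1 1387674_at (-1.44) and Mgll 1370831_at (-0.78) are black, and only the first lies beyond the dotted line of 2-fold.

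Within each array, the ratio between the probe sets of a gene shows whether they moved by the same factor. On the log2 scale 1369677_at exceeded 1387674_at by 4.70 and 4.61 in stressed rats and by 3.36 and 3.13 in nonstressed controls. The ratio was therefore higher on both stressed arrays. The difference was 1.41 (standard error 0.13, limma adjusted p = 0.00282), fitted over all 2365 such pairs on the array, of which 24.0% passed. It did not pass when dim probe sets were let into that fit (adjusted p = 0.156).

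Mgll encodes the lipase that breaks down most 2-arachidonoylglycerol in the brain, and 1 of its 3 tested probe sets fell. At 1370831_at the signals were 1451.7 and 1495.1 in stressed rats, against 2559.4 and 2508.6 in nonstressed controls. The arrays of a group were close to each other and the groups were far apart. The means were 1473.4 ± 30.7 in stressed rats and 2534 ± 35.9 in nonstressed controls (SD, n = 2 arrays each). The log2 fold change was -0.78 (standard error 0.05, 95% interval -0.89 to -0.68, limma adjusted p = 4.63e-05), a signal 1.72-fold lower. It missed the 2-fold limit of the methods but passed a limit of 1.5-fold, as 4.14% of all tested probe sets did as lower.

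The other probe sets of Mgll differed less. At 1375247_at the signals were 1050.9 and 1010.1 in stressed rats and 994.1 and 1067.1 in nonstressed controls, so that the groups overlapped. The log2 fold change was 0.00, and the 95% interval of the fold was 0.912 to 1.10 (limma adjusted p = 0.995). At 1388644_at they were 832.6 and 919.5 in stressed rats and 968.9 and 969.1 in nonstressed controls, a log2 fold change of -0.15 (limma adjusted p = 0.127). Both stressed arrays lay under the controls here, and the stressed arrays were themselves spread widely. The fourth probe set, 1375355_at, was too dim to be tested, with 38 and 43.3 in stressed rats and 67.5 and 59.9 in nonstressed controls. In a fit with no filter on dim probe sets it had a log2 fold change of -0.65 (unadjusted p = 0.0370, limma adjusted p = 0.184).

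The probe sets of Mgll also changed unequally. The log2 ratio of 1370831_at over 1375247_at was 0.47 and 0.57 in stressed rats and 1.36 and 1.23 in nonstressed controls. That difference of -0.78 had a standard error of 0.11 (limma adjusted p = 0.00743). Over 1388644_at the ratio was 0.80 and 0.70 in stressed rats and 1.40 and 1.37 in nonstressed controls, a difference of -0.64 (limma adjusted p = 0.0115). With dim probe sets let into the fit these 2 differences did not pass (adjusted p = 0.155 and 0.173). In all, 3 of the 5 pairs of endocannabinoid probe sets changed unequally, beside 24.0% of all 2365 pairs. Both pairs of Mgll hold the falling 1370831_at, so they are not separate results.

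**Figure D3:**
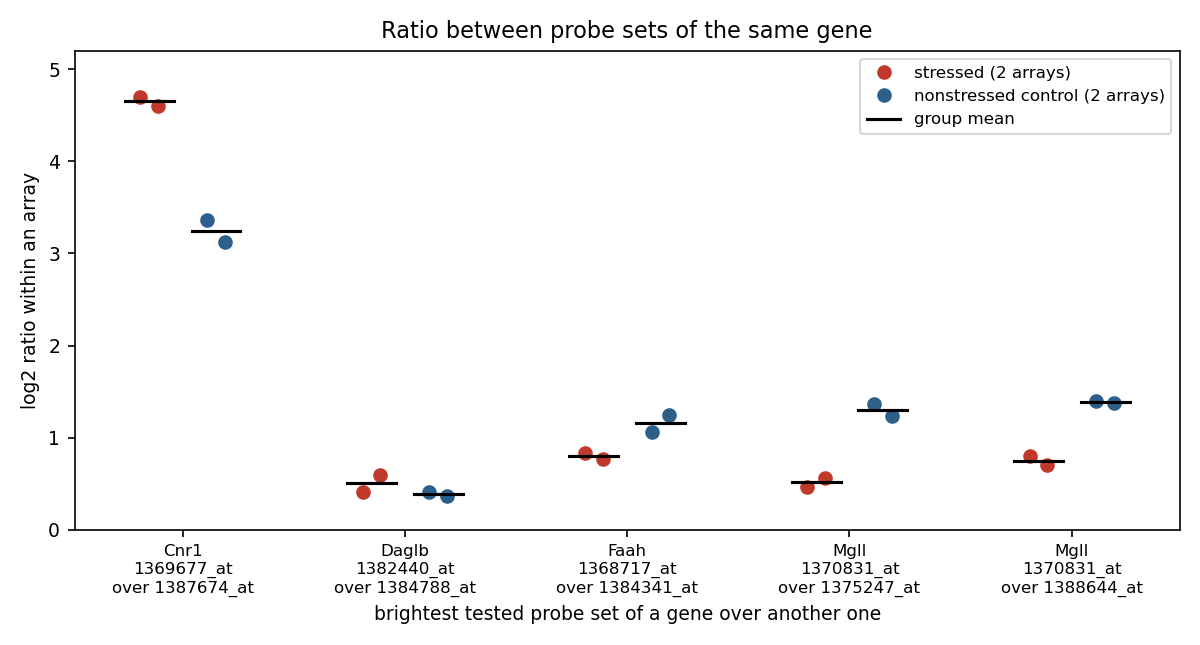
Log2 ratio within an array (vertical axis) of the brightest tested probe set of a gene over each other tested one (horizontal axis), with points for the 2 stressed and 2 nonstressed control arrays and bars for group means. The ratio was higher in stressed rats for Cnr1 (4.65 against 3.24) and lower for both pairs of Mgll (0.52 against 1.30 and 0.75 against 1.39).

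Faah encodes the main hydrolase of anandamide, and neither of its probe sets passed the test. The signals of 1368717_at were 381.7 and 372.6 in stressed rats and 387.3 and 376.1 in nonstressed controls, with overlapping groups. Its fold was 0.988, with a 95% interval of 0.875 to 1.12 (limma adjusted p = 0.888). At the dimmer probe set 1384341_at the signals were 213.7 and 219.4 in stressed rats and 185.3 and 158 in nonstressed controls. Both stressed values were higher than both control values, while the controls were spread widely. The log2 fold change was 0.34 (standard error 0.12, unadjusted p = 0.0238, limma adjusted p = 0.0794), with an interval of the fold from 1.04 to 1.54. The log2 ratio of the brighter over the dimmer probe set was 0.84 and 0.76 in stressed rats and 1.06 and 1.25 in nonstressed controls. This difference of -0.36 did not pass (limma adjusted p = 0.0791), and it passed when a signal of at least 200 was required (adjusted p = 0.0402). The dimmer probe set reached 200 only on the stressed arrays, where it is higher, so that the difference itself let it through that filter.

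Daglb encodes the less studied of the diacylglycerol lipases and was the only measured enzyme of synthesis among the members. At 1382440_at its signals were 357.7 and 377.5 in stressed rats and 357.3 and 335 in nonstressed controls. The stressed arrays were the higher ones, the lowest of them by a margin of less than a single unit of signal. Its log2 fold change was 0.09 (standard error 0.08, limma adjusted p = 0.481). At 1384788_at they were 268.9 and 249.7 in stressed rats and 269.3 and 259.8 in nonstressed controls, a log2 fold change of -0.03 (limma adjusted p = 0.846). The 95% intervals of the fold were 0.930 to 1.21 and 0.841 to 1.14, so that changes of 1.5-fold lay outside both. The 2 probe sets were not shown to differ in their change (difference 0.12 on the log2 scale, standard error 0.11, limma adjusted p = 0.491).

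Abhd6, a hydrolase of 2-arachidonoylglycerol in the postsynaptic cell, had 1 tested probe set. The signals of 1390155_at were 522.7 and 583.8 in stressed rats and 614.9 and 566.9 in nonstressed controls, with overlapping groups. The log2 fold change was -0.10 (standard error 0.08, limma adjusted p = 0.413), and the interval of the fold ran from 0.824 to 1.06. The other probe set, 1380332_at, was dim on all arrays, with 35.3 and 44.5 in stressed rats and 31.3 on both control arrays, and was not tested.

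The 5 probe sets whose profile over the 4 arrays lay nearest to that of Cnr1 1369677_at were those of Armc8, Alg13l1, Pfdn1, Wtap and Ndufa13. Their centred log2 signals differed from those of Cnr1 by a root mean square of 0.0040 to 0.0062. With 4 arrays and a flat profile many genes look alike, and this is given as a description only.

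Other genes of endocannabinoid signalling were counted at the brightest tested probe set of each. Of 69 listed genes 60 had a probe set and 39 were tested. In stressed rats 8 fell, 4 rose and 27 did not pass adjusted p under 0.05 from limma. Over all 9268 genes counted in this way, 10.2% fell and 11.1% rose. The median log2 fold change was -0.05 for the listed genes and 0.02 for all genes.

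Among receptors and their partners 2 genes were tested. Sgip1 encodes a protein that binds Cnr1 and slows its internalisation. Its signals were 263.2 and 286.3 in stressed rats, against 535.8 and 503.1 in nonstressed controls, so that both stressed arrays were far below both controls. Its log2 fold change was -0.92 (limma adjusted p = 3.57e-04). A second tested probe set of the gene, at 0.20, did not pass (adjusted p = 0.199). Cnrip1, which binds the tail of Cnr1, had a log2 fold change of -0.12 and did not pass (limma adjusted p = 0.180).

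Of 9 tested genes upstream of ligand synthesis 2 fell and 2 rose, beside 10.2% and 11.1% of all genes. Grm5, which encodes mGluR5, had signals of 362.4 and 336.5 in stressed rats, against 1040.6 and 1006.3 in nonstressed controls. Gna11, a Gq-class G protein subunit, had 154.5 and 147.5 in stressed rats, against 348.1 and 333.3 in nonstressed controls. At both genes the groups were far apart, with log2 fold changes of -1.55 and -1.17 (limma adjusted p = 1.63e-05 and 2.70e-04), each at the only tested probe set. Phospholipase gene Plcb1 rose by 0.17 and Abhd4, a hydrolase of a further route to anandamide, by 0.16 on the log2 scale (limma adjusted p = 0.0389 and 0.0403).

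Of 10 tested genes of ligand breakdown and transport 2 fell and none rose by limma, beside 10.2% and 11.1% of all genes. Abhd12, a further hydrolase of 2-arachidonoylglycerol, had signals of 672 and 621.6 in stressed rats, against 783.3 and 822.4 in nonstressed controls, a log2 fold change of -0.31 (limma adjusted p = 0.0124). Fabp7, a fatty acid binding protein of astrocytes and progenitors, had 2488.2 and 2461.5 in stressed rats, against 3129.3 and 3213.9 in nonstressed controls, a log2 fold change of -0.36 (limma adjusted p = 0.00136). The groups did not overlap at either gene. Fabp5, which carries anandamide inside cells, had a log2 fold change of -0.19 and did not pass (limma adjusted p = 0.0506).

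Of 18 tested genes of receptor effectors 3 fell and 2 rose, beside 10.2% and 11.1% of all genes. Kcnj6, a subunit of the potassium channels opened by Gi/o-coupled receptors, had signals of 1361 and 1368.8 in stressed rats, against 898.1 and 943.1 in nonstressed controls. Both stressed arrays were above both controls, and the log2 fold change was 0.57 (limma adjusted p = 3.49e-04). Gnai2, an inhibitory G protein subunit, fell by 0.60 on the log2 scale (limma adjusted p = 0.00131). The calcineurin subunit gene Ppp3r1 had log2 fold changes of -0.39, -0.86 and -0.12 at its 3 tested probe sets, of which the last did not pass. Gng2, a G protein gamma subunit, fell by 0.29 at the probe set that was brighter over all 4 arrays, while the other, at 0.02, did not pass. On the stressed arrays that other probe set was the brighter one, with 602.1 and 569.5 against 560.4 and 530.3, so that the high controls chose the probe set counted for Gng2. Prkacb, named after its values were seen, rose by 0.16.

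Several of these calls were lost when an array was left out, which leaves 1 array in a group. Those of Plcb1, Abhd4 and Prkacb were lost in each of the 4 removals, with adjusted p of 0.0873 to 0.168, 0.102 to 0.139 and 0.0846 to 0.165, and also after median centring. That of Abhd12 was lost without stressed replicate 2 (adjusted p = 0.0512) or control replicate 2 (0.0904). That of Gng2 was lost without stressed replicate 2 (0.0635), control replicate 1 (0.0538) or control replicate 2 (0.106). Without the intensity trend the calls of Abhd12 and Gng2 were lost as well (adjusted p = 0.0553 for each). The calls of Cnr1 1387674_at and Mgll 1370831_at passed in all 4 removals, with log2 fold changes of -1.55 to -1.34 and -0.80 to -0.76.

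**Figure D4:**
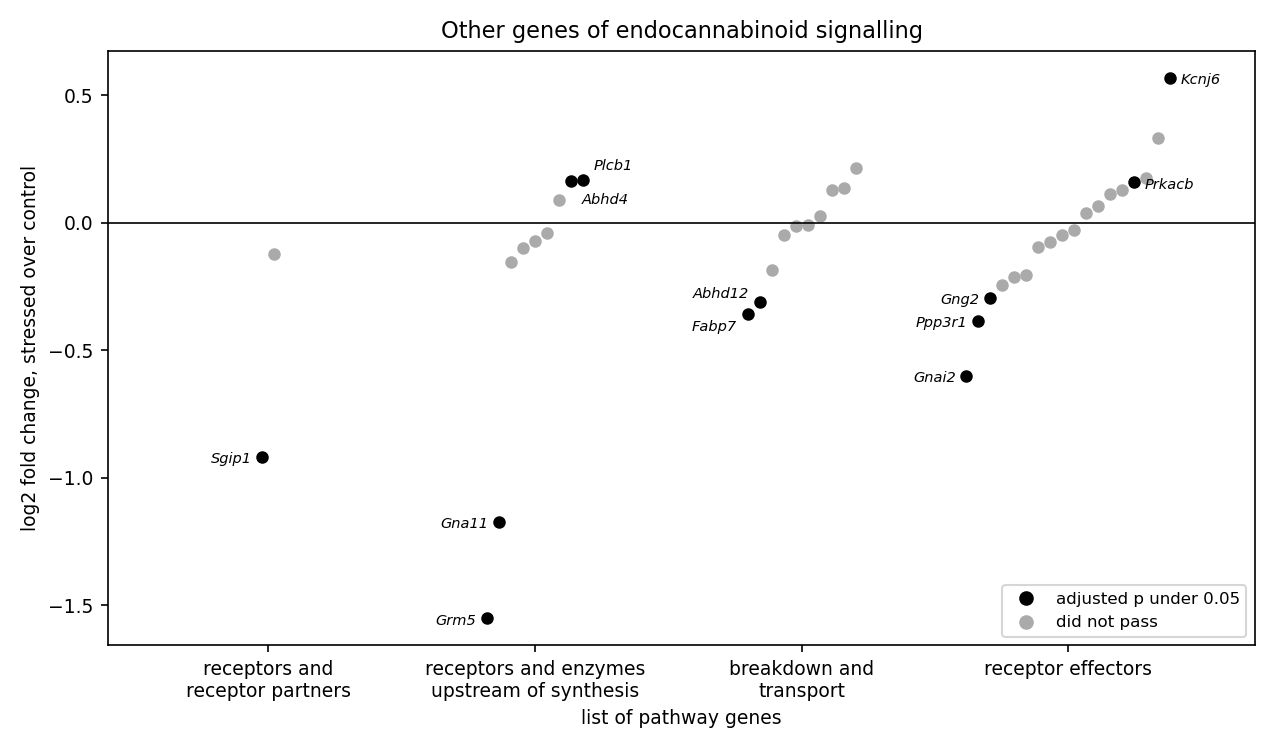
Log2 fold change of stressed over nonstressed control rats (vertical axis) for the 39 tested genes of 4 lists of endocannabinoid signalling (horizontal axis), 1 point per gene at its brightest tested probe set, sorted within each list. The 8 named black points below 0 fell and the 4 above 0 rose at adjusted p under 0.05, from -1.55 for Grm5 to 0.57 for Kcnj6.

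Cell type markers were read beside these values, and no listed marker was at 0 on any array. Each was taken at its brightest tested probe set, where 10.2% of all 9268 genes fell and 11.1% rose. The summed signals below hold every listed marker with a probe set, tested or not, and follow the brightest of each list. All 9 markers of hippocampal glutamatergic neurons with a probe set passed the filter, and 3 rose and 1 fell by limma. Neurod2, a transcription factor, fell by 0.79 on the log2 scale, while Camk2a rose by 0.18, Amigo2 by 0.23 and Dsp by 0.91. Dsp reached 100 only on the stressed arrays, where it is higher. The summed signal of the list was 11405 to 11466 in stressed rats and 10920 to 11179 in nonstressed controls. Of 6 tested markers of cholecystokinin basket cells 2 fell and none rose. These were Cck, with a log2 fold change of -0.24 (limma adjusted p = 0.0104), and Sncg, with one of -1.82 (limma adjusted p = 4.63e-05), which the study chose on these samples. Vip, Cxcl14, Reln and Npas1 did not pass, at -0.10, -0.04, 0.16 and -0.50, Htr3a was too dim to be tested, and the call of Cck was lost without stressed replicate 2 or control replicate 2 (adjusted p = 0.0579 and 0.0816) and without the intensity trend (0.0756). The summed signal of this list was 5773 to 5958 in stressed rats and 6746 to 6934 in nonstressed controls. Of 6 tested general GABA neuron markers 2 fell and none rose. These were Gad2, at -1.41, which the study also chose on these samples, and the vesicular transporter gene Slc32a1, at -0.38. Gad1, the brightest of the list, did not pass at 0.01, nor did Dlx1, Pvalb and Sst, at -0.13, -0.21 and -0.09. The list had sums of 6799 to 6991 in stressed rats and 7406 to 7590 in nonstressed controls.

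Among markers of other cells, 6 of 8 tested choroid plexus markers rose, with sums of 17959 to 19134 in stressed rats and 13947 to 15790 in nonstressed controls. Of all genes counted in this way 11.1% rose and 10.2% fell. Ttr makes up most of these sums and did not pass (limma adjusted p = 0.0579). Its signals were 12992.4 and 11938.5 in stressed rats and 9449.9 and 11337.7 in nonstressed controls. Cldn2, Kcne2 and Aqp1, which are 3 of the 6 that rose, reached 100 only on the stressed arrays, and so had to be higher there to be tested. Of 7 endothelial and mural markers 3 rose, with sums of 2704 to 2729 in stressed rats and 2357 to 2464 in nonstressed controls. Of these 3, Pdgfrb likewise reached 100 only on the stressed arrays. Of 8 astrocyte markers 1 rose, with sums of 53450 to 54965 in stressed rats and 47934 to 49674 in nonstressed controls. Of 6 microglial markers 1 rose and 2 fell, with sums of 3413 to 3477 in stressed rats and 3646 to 3676 in nonstressed controls. Of 6 oligodendrocyte markers 1 rose and 1 fell, with sums of 28203 to 28965 in stressed rats and 28742 to 30443 in nonstressed controls. The 4 tested markers of striatum and thalamus did not pass, and the sums were 1871.5 to 1876.1 in stressed rats and 1852.6 to 1876.1 in nonstressed controls. The part of these differences in the endocannabinoid values was not tested.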

How the data were processed

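Hippocampal RNA of stressed and nonstressed rats was hybridized by the authors to Affymetrix rat genome arrays, and the deposited signal intensities were made with GCOS and scaled per array. The 4 deposited columns are linear, with a median signal of 79.6 to 82.3 per array and 46.5% to 46.8% of probe sets at 100 or more. The number of arrays limits the precision.

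Zeros were set to 0.1, signals were taken to log2 and 57 control probe sets were left out. Probe sets that reached a signal of 100 on 2 or more arrays were fitted with limma 3.58.1 (R 4.3.3), with an intensity trend and no replicate block. Differences between probe sets of a gene were fitted in the same way on within-array log2 ratios. Scripts were tested on simulated data. Of 20837 probe sets with 1 symbol, 20769 matched a RefSeq table (GRCr8), used for names only.

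The members and gene lists were chosen with earlier results of these data known. Named were all members, up to 4 called genes per pathway list by smallest p, the basket cell markers and the 5 profiles nearest Cnr1; other names were added after their values were seen. The alternatives were median centring, quantile normalization, a minimum of 200, no filter, an offset of 50, a floor of 50, no intensity trend, the t-test of the methods on log2 signals, a replicate block, each array left out, 1.5-fold, and averaging the probe sets of a gene. A crossed block was added after seeing the data.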

Additional observations from a re-analysis of the deposited data

How the results depend on the processing

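The falls of Cnr1 1387674_at and Mgll 1370831_at passed adjusted p under 0.05 in 13 of 14 alternatives. Among these, Cnr1 1387674_at met the minimum of 200 only on the control arrays, where it is higher. That pass therefore adds little for Cnr1. The t-test of the methods on log2 signals, which shares no spread between probe sets, gave the same log2 fold changes, -1.44 and -0.78, without passing (adjusted p = 0.112 and 0.0822). By that test no endocannabinoid probe set was called (0 of 10, with 2 lower at unadjusted p under 0.05). Neither was any pathway gene (0 higher and 0 lower of 39, with 4 and 9 at unadjusted p under 0.05) or pair (0 of 5, with 3 at unadjusted p under 0.05). Over the whole array 4 probe sets were higher and 14 lower at adjusted p under 0.05. Whole-array shares at unadjusted p were not counted, for these counts or those below, so they cannot be set against the array. Offset by 50, the fold change of Cnr1 1387674_at was -1.11 and still passed. With 1.5-fold in place of 2-fold, 2 endocannabinoid genes passed the thresholds of the methods. The unequal changes, 1.41 for Cnr1 and -0.78 and -0.64 for Mgll, did not pass by the t-test (adjusted p = 0.0959, 0.106 and 0.0953) or with no filter, where 0 of 7 pairs passed and 3 did at unadjusted p under 0.05. The unequal change of Faah, -0.36, passed only with a signal of at least 200, a minimum that its dimmer probe set met only on the stressed arrays, where it is higher.

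Pathway genes that rose numbered 1 after median centring, 1 with no filter, 1 without an intensity trend, 1 with the replicate block and 1 to 2 when an array was left out. Without an intensity trend 1000 probe sets were higher and 1147 lower over the whole array. When an array was left out there were 650 to 1148 higher and 791 to 1342 lower. Same-numbered arrays deviated with a correlation of -0.11. With 2 arrays per group this cannot settle whether arrays were processed in pairs. The replicate block left 1281 probe sets higher, 1391 lower and the same 2 endocannabinoid probe sets lower, with adjusted p of 8.45e-04 for Cnr1 1387674_at and 3.67e-04 for Mgll 1370831_at. It changed no other call of the members. With crossed numbers 2069 probe sets were higher and 1970 lower, and 2 endocannabinoid probe sets were lower. Signals near 100 or below limit what can be said of Mgll 1375355_at and Abhd6 1380332_at.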

Other observations

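Of the 60 listed pathway genes with a probe set, 21 were too dim to be tested, and the genes given here were chosen after their values were seen. Cnr2, which encodes the CB2 cannabinoid receptor of immune cells, had signals of 15.7 and 17 in stressed rats and 20 and 6.9 in nonstressed controls. Chrm1, a Gq-coupled muscarinic receptor known to be expressed in hippocampal pyramidal cells, had 31.9 and 16.2 in stressed rats and 21.6 and 21.8 in nonstressed controls. Both genes showed overlapping groups at these low signals. Alox15, a lipoxygenase that can oxidise endocannabinoids, had 23.2 and 27.2 in stressed rats and 63.9 and 62.2 in nonstressed controls. Both stressed arrays were lower than both controls, and the probe set was not tested because all 4 signals lay under 100.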
